A study of Mus musculus with 4 samples.

Results

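The Sox genes encode transcription factors that bind DNA through a high mobility group box, and they were followed here in RNA-seq of whole cerebral cortex from mouse embryos at day 15 of gestation. The genes are those of the deposited count table whose symbol is Sox1, Sox2 or Sox3 (SoxB1), Sox21 (SoxB2), Sox4 or Sox11 (SoxC), Sox5 or Sox6 (SoxD), or Sox8 or Sox9 (SoxE). All 10 were present among the 13289 genes of the table, and all 10 passed the filter on low counts. The rule takes them by name.

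The study has 4 libraries of polyadenylated RNA in 2 groups: 2 of control cortex, titled WT, and 2 of Lhx2 cKO cortex. In the latter, Lhx2, a LIM-homeodomain transcription factor of cortical progenitors, is targeted. The titles are read here as wild type and conditional knockout. The labels used here give neither a Cre driver nor an allele, and they do not give the number, sex or litter of the embryos, so p-values measure only the spread between these libraries. Library totals ran from 22294237 to 24609627 counts. Lhx2 itself was at 316 and 287 CPM (counts scaled to library size) in control and at 239 and 247 CPM in Lhx2 cKO. The Lhx2 level in the whole tissue was 80.7% of control. Counts are per gene and the allele is not given, so this does not show how much intact Lhx2 RNA remained. The log2 fold change of Lhx2 was -0.31 (SE 0.098, adjusted p = 0.0191 in edgeR). Leaving out control 1, Lhx2 cKO 1 or Lhx2 cKO 2 ended that call (adjusted p = 0.176, 0.102 and 0.0538). Defining markers of cortical excitatory neurons were present in every library, with a summed level over 8 of them of 2734 to 2926 CPM in control and 2551 to 2553 CPM in Lhx2 cKO. Of the 8, Neurod6, Cux1 and Pou3f2, named after their values were seen, were called lower and 0 higher. Neurod6, at -0.32 (adjusted p = 0.0212, edgeR), lost its call without control 1 (0.158), Lhx2 cKO 1 (0.0748) or Lhx2 cKO 2 (0.0783).

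SoxB1 proteins keep neural progenitors undifferentiated and act on DNA with partner factors such as POU proteins and Pax6, while the SoxB2 protein Sox21 acts largely as a repressor. SoxC proteins are abundant in newborn neurons and activate neuronal genes, and SoxD proteins lack an activation domain of their own and act through partners. SoxE proteins serve in radial glia, from which cortical neurons and glia arise, and later in astrocytes and oligodendrocyte precursors.

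RefSeq promoter windows (GRCm38.p6, 250 bases before to 50 after a gene's start) were matched by symbol for 8 of the 10 members, in 13 windows, since Sox6 has several starts. Sox3 and Sox9 were not matched. The windows of Sox4 and Sox11 are shown because these genes had nearly the same fold change. That of Sox2 is shown as the best known SoxB1 gene, and the most upstream window of Sox6 because Sox6 was the matched member that was called. Capitals mark each match, on either strand, to TAATTA (a core bound by LIM-homeodomain proteins), ACAAAG or ACAATG (Sox-type sites), ATGCAAAT (the octamer bound by POU factors) or CCAAT. None of these motifs contains another.
Sox4 (chr13:28953650-28953949, minus strand): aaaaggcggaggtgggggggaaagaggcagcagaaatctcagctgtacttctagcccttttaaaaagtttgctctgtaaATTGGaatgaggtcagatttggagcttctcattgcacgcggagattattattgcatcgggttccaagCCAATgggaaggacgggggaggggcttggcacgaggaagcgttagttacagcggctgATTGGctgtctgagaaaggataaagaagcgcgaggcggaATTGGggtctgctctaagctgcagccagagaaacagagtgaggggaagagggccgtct
Sox11 (chr12:27342669-27342968, minus strand): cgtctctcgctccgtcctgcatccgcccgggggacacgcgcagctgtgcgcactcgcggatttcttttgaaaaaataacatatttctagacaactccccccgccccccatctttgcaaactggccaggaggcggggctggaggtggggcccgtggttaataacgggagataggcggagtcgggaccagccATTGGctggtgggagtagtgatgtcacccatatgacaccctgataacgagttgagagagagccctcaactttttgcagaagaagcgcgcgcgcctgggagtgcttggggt
Sox2 (chr3:34649745-34650044, plus strand): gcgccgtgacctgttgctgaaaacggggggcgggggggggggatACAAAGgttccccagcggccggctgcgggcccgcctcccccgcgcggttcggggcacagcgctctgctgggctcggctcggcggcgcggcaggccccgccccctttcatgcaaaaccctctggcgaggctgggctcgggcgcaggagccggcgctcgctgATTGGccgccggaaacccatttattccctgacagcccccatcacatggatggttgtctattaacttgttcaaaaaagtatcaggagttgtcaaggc
Sox6 (chr7:116038695-116038994, minus strand): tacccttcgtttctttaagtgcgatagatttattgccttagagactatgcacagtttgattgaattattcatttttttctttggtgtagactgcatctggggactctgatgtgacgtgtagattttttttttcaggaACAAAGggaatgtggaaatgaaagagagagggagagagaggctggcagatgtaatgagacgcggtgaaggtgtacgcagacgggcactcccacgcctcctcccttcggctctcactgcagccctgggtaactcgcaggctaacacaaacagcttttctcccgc
CCAAT was found 4 times in the Sox4 window and 1 time in the Sox11 window. Over the members it occurred in 7 of 13 windows (53.8%), against 37.4% of the 32817 windows of all genes. ACAAAG occurred in 6 of the 13 (46.2%), all of them windows of Sox2 or Sox6, against 18.7% of all windows. ACAATG occurred in 3 windows, of Sox5 and Sox6 (23.1%, against 12.6%), and the octamer in 1, that of Sox1 (7.69%, against 1.74%). TAATTA was found in 0 of 13, against 5.30% of all windows. Since 6 of the 13 windows belong to Sox6, the shares are not shares of genes, and a match to these letters describes the window only.

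Of the 10 Sox genes, 3 fell in Lhx2 cKO at an adjusted p under 0.05 in edgeR's quasi-likelihood test: Sox3 (SoxB1), Sox6 (SoxD) and Sox9 (SoxE). None of the other members passed that test. Since all 10 estimates were below 0, 0 members rose, in edgeR and DESeq2 alike and at any unadjusted p. Over all 13288 genes tested, 20.8% were called in either direction, 9.17% lower and 11.6% higher. DESeq2 called 5 of the 10 members and 16.3% of all genes, limma-voom 4 members and 20.7%, and edgeR with the replicate number as a block 3 members and 21.6%. The log2 fold changes of the 10 members ran from -1.37 to -0.07 with a median of -0.22, where the median of all genes was 0.0034. Both Lhx2 cKO libraries lay below both control libraries for 7 members, against 29.1% of all genes (59.3% did not overlap in either direction), and the groups overlapped for Sox2, Sox21 and Sox8. In bulk tissue, fewer cells of a type and less RNA per cell cannot be told apart.

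**Figure D1:**
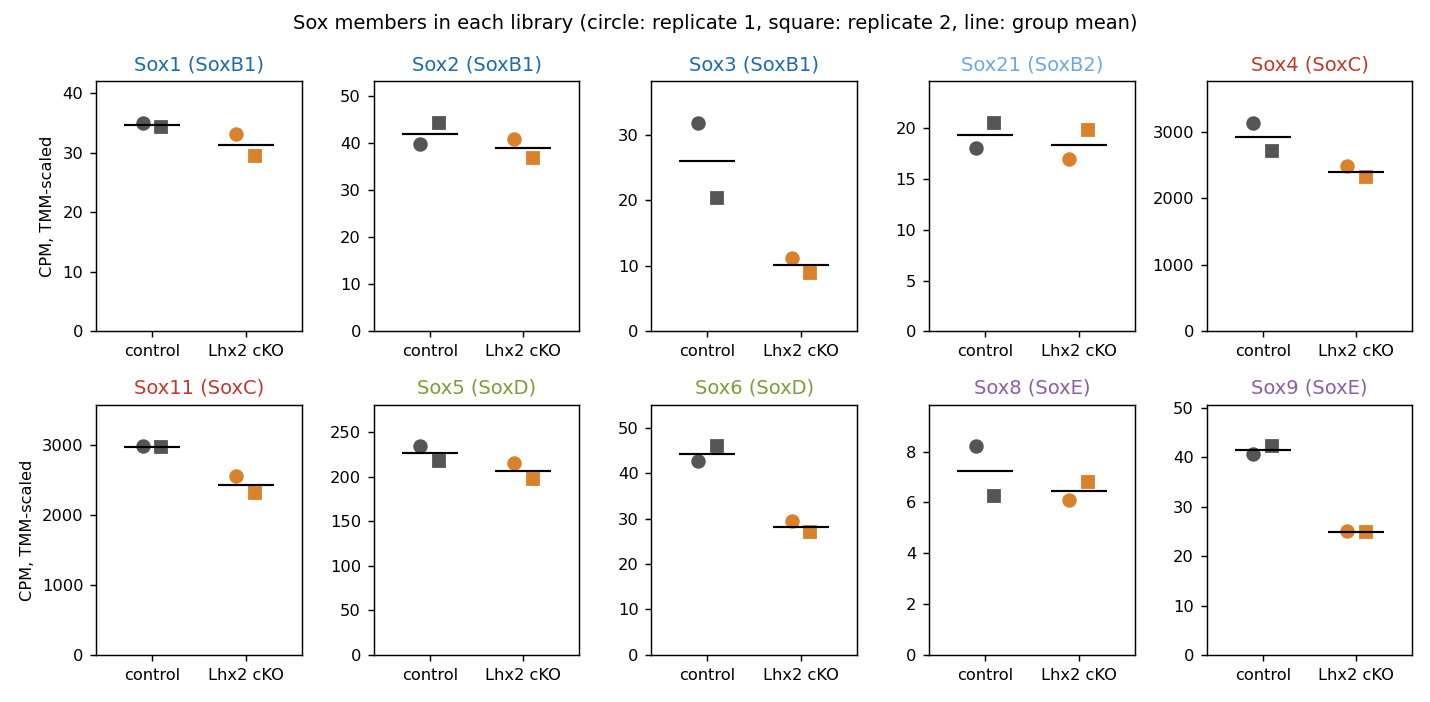
TMM-scaled CPM of each of the 10 Sox genes in the 2 control (grey) and 2 Lhx2 cKO (orange) libraries, with the group mean as a line and each y axis starting at 0. Sox3, Sox6 and Sox9 show the called differences, while the groups of Sox2, Sox21 and Sox8 overlap.

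**Figure D2:**
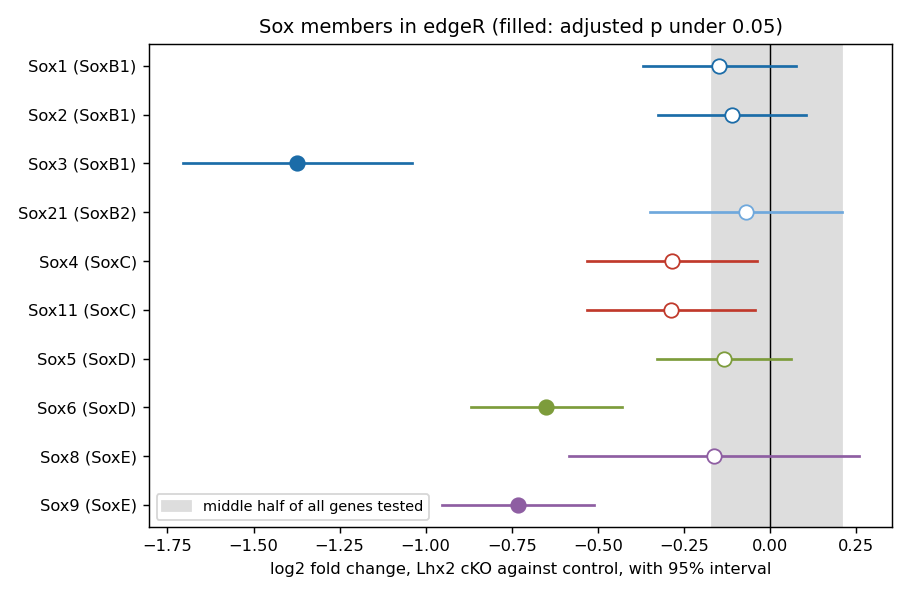
Log2 fold change of each Sox gene, Lhx2 cKO against control, with its 95% interval from the edgeR fit (filled points: adjusted p under 0.05) and the range between the quartiles of all genes tested as a grey band. The intervals of Sox3 at -1.37, Sox9 at -0.73 and Sox6 at -0.65 lie below the band.

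Among the SoxB1 genes, Sox3, which acts with Sox1 and Sox2 in neural progenitors, fell to 38.6% of its control level. Sox3 was at 31.8 CPM in control 1, 20.2 CPM in control 2, 11.2 CPM in Lhx2 cKO 1 and 8.92 CPM in Lhx2 cKO 2. The control libraries differed from each other, and both were above both Lhx2 cKO libraries. Its log2 fold change was -1.37 (SE 0.164, adjusted p = 1.96e-08, edgeR). Without control 1 it was -1.02 and without control 2 -1.66, and the call held in each of the 4 fits that left out 1 library.

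Sox1 and Sox2 were not called. Sox1 was at 35.0 and 34.2 CPM in control and at 33.2 and 29.4 CPM in Lhx2 cKO. The groups did not overlap, but the gap was narrow beside the spread within Lhx2 cKO, and the log2 fold change was -0.15 (95% interval -0.37 to 0.08, adjusted p = 0.383, edgeR). Sox2, the SoxB1 gene used most widely as a mark of neural stem cells, was at 39.8 and 44.4 CPM in control and at 41.0 and 37.0 CPM in Lhx2 cKO. Here Lhx2 cKO 1 lay between the control libraries. The log2 fold change of Sox2 was -0.11 with an interval from -0.33 to 0.10 (adjusted p = 0.515, edgeR), which leaves room for a fall of up to 0.33 but not for one of the size of Sox3.

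Per kilobase of the deposited gene length, so that levels can be compared between genes, Sox2 was highest of the SoxB1 genes in control at 20.5 ± 1.59 CPM per kb (SD, n = 2), followed by Sox3 at 12.6 ± 3.96 and Sox1 at 7.17 ± 0.112. In Lhx2 cKO the levels were 19.0 ± 1.41 for Sox2, 4.86 ± 0.767 for Sox3 and 6.47 ± 0.556 for Sox1. On this scale Sox3 thus passed from the second place to the third. In CPM, not divided by length, Sox3 was already the lowest of the SoxB1 genes in control, at a mean of 26.0 against 34.6 for Sox1. The order therefore depends on the deposited lengths. Sox3 made up 36.7% and 25.5% of the SoxB1 level in the control libraries, against 16.8% and 15.2% in those of Lhx2 cKO. The log2 ratio of Sox3 to Sox2 within a library was -0.33 and -1.14 in control, against -1.88 and -2.06 in Lhx2 cKO, a mean difference of -1.24. That of Sox1 to Sox2 was -1.42 and -1.61 against -1.54 and -1.56, so the groups overlapped. An exact two-sided permutation test of 2 libraries against 2 cannot give a p below 0.333, which is the value for Sox3 to Sox2. Without control 1 the difference in the Sox3 to Sox2 ratio was -0.83, and without control 2 it was -1.64.

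Sox3 lies on the X chromosome, and the labels do not give the sex of the embryos. Xist, expressed from the inactive X of female cells, was at 1918 and 1962 CPM in control and at 1598 and 1600 CPM in Lhx2 cKO. Eif2s3y, a Y-linked gene, was at 52.5 and 57.8 CPM in control and at 74.0 and 73.0 CPM in Lhx2 cKO. Transcripts of both kinds were thus present in every library, as in tissue pooled from female and male embryos. The labels state no pooling, and the share of each sex in a library is not known. Xist, at a log2 fold change of -0.28, was not called in edgeR (adjusted p = 0.0803) but passed in DESeq2 (0.005). Of 4 Y-linked genes examined, Eif2s3y was the only one called in edgeR, at 0.41 (adjusted p = 0.00192, and 0.0542 without control 1). Kdm5d was at 0.33 (adjusted p = 0.0572), Ddx3y at 0.16 (0.380) and Uty at 0.07 (0.880), with overlapping groups for Ddx3y and Uty. Their part in the Sox3 result was not tested. Both Xist and Eif2s3y were described after their values were seen.

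Sox21, the SoxB2 gene, was at 18.1 and 20.6 CPM in control and at 17.0 and 19.8 CPM in Lhx2 cKO. The groups overlapped, and the log2 fold change of -0.07 had a 95% interval from -0.35 to 0.21 (adjusted p = 0.775, edgeR). The sign turned without control 2 (0.027) and without Lhx2 cKO 1 (0.036). Set against the SoxB1 sum per kilobase, the log2 level of Sox21 was -3.14 and -2.83 in control, against -2.85 and -2.44 in Lhx2 cKO, with overlapping groups (exact permutation p = 0.667).

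SoxC transcripts were by far the most abundant of the family. In control, Sox4 was at 610 ± 62.9 and Sox11 at 357 ± 1.15 CPM per kb (SD, n = 2), ranks 29 and 54 of the 13288 genes on that scale. Next came Sox2 at 20.5, Sox5 at 15.7, Sox3 at 12.6, Sox9 at 10.03, Sox1 at 7.17, Sox21 at 5.08, Sox6 at 2.98 and Sox8 at 2.32 CPM per kb. The level of Sox4 was 263-fold that of Sox8. Sox3 overlapped in the control libraries with both of its neighbours in that order, Sox5 and Sox9. Sox4, which promotes neuronal differentiation and survival, was at 3138 and 2711 CPM in control and at 2489 and 2315 CPM in Lhx2 cKO. Sox11, its close relative with an overlapping role, was at 2974 and 2960 CPM in control and at 2547 and 2313 CPM in Lhx2 cKO. In both genes the Lhx2 cKO libraries lay below the control libraries, at 82.1% and 81.9% of the control mean.

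Neither SoxC gene was called in edgeR. The log2 fold change was -0.28 for Sox4 (SE 0.122, 95% interval -0.53 to -0.04, adjusted p = 0.0957) and -0.29 for Sox11 (SE 0.121, interval -0.53 to -0.04, adjusted p = 0.0849). Both were past the threshold in DESeq2 (adjusted p = 0.0204 and 0.00734). In the authors' deposited table, Sox4 had an adjusted p of 0.0497 and Sox11 one of 0.0407, and both carry its label for no significant change. Adjusted p for Sox11 was also 0.0482 with library totals and 0.0427 in limma-voom, while for Sox4 it was 0.0535 and 0.0547. The SoxC difference therefore sits at the threshold, with about the same fold change under every one of these tools. Without control 1 the estimate for Sox4 shrank to -0.19. The part in the SoxC values of the excitatory neurons, whose summed markers were also lower, was not tested.

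The log2 ratio of Sox4 to Sox11 per kilobase was 0.87 and 0.67 in the control libraries, against 0.76 and 0.79 in those of Lhx2 cKO. Both Lhx2 cKO values lay between the control values (mean difference 0.0088, exact permutation p = 1), so no shift in the balance of the pair was detectable. Together the 2 genes made up 92.7% of the summed level of the 10 members in control and 93.0% in Lhx2 cKO, in CPM per kb.

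**Figure D3:**
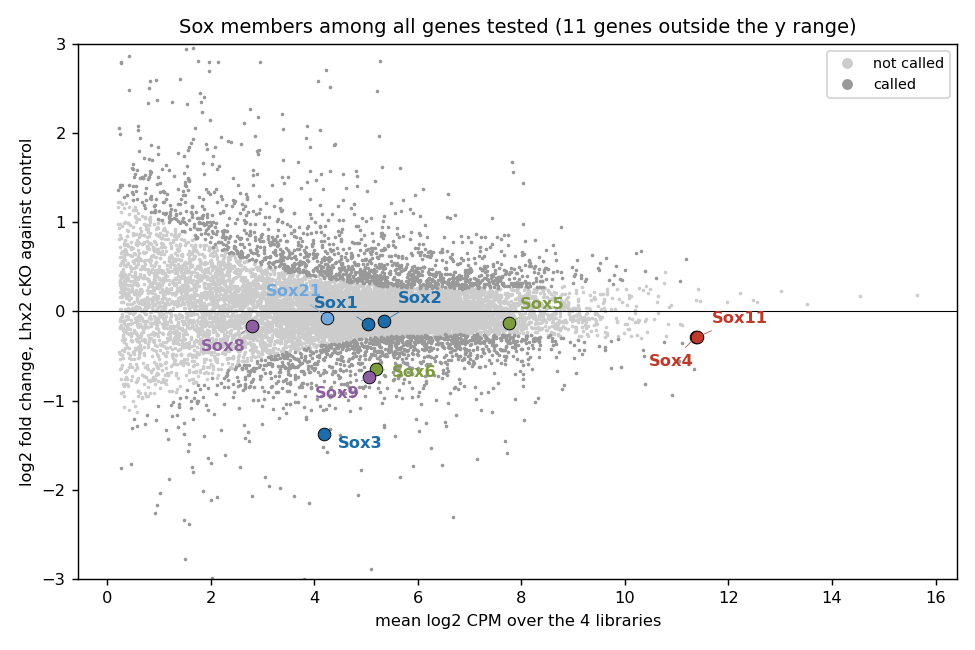
Mean log2 CPM over the 4 libraries (x axis) against log2 fold change, Lhx2 cKO against control (y axis), for all 13288 genes tested, with the 10 Sox genes coloured by subgroup. Sox4 and Sox11 lie far to the right among the most abundant genes, Sox3 lies among the called genes at -1.37, and 11 genes fall outside the y range.

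In the SoxD pair, Sox6 fell and Sox5 was not called. Sox6, which acts in dorsal progenitors and in interneurons of the medial ganglionic eminence, was at 42.6 and 45.9 CPM in control and at 29.4 and 27.0 CPM in Lhx2 cKO. The gap between the groups was several times the spread within each. Its level in Lhx2 cKO was 63.7% of control, and the log2 fold change was -0.65 (SE 0.109; adjusted p = 1.41e-05, edgeR). The call held without each library in turn, with values from -0.71 to -0.59.

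Sox5, which controls the order in which deep-layer corticofugal neurons are made, was at 234 and 218 CPM in control and at 215 and 197 CPM in Lhx2 cKO. Lhx2 cKO 1 was just below control 2, so the groups met without overlapping. The log2 fold change was -0.13 (95% interval -0.33 to 0.06, adjusted p = 0.357, edgeR). Sox5 is the more abundant of the pair, at 15.7 ± 0.778 against 2.98 ± 0.155 CPM per kb in control (SD, n = 2). The log2 ratio of Sox5 to Sox6 was 2.50 and 2.29 in control, against 2.91 and 2.91 in Lhx2 cKO, higher in both Lhx2 cKO libraries (mean difference 0.52, exact permutation p = 0.333, the smallest possible).

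In the SoxE pair, Sox9, which is needed for the start of gliogenesis and is expressed in radial glia, fell to 60.2% of control. Sox9 was at 40.7 and 42.2 CPM in control and at 25.1 and 24.9 CPM in Lhx2 cKO. Replicates agreed closely in both groups. The log2 fold change was -0.73 (SE 0.11, adjusted p = 2.09e-06, edgeR), and it ranged from -0.77 to -0.71 when 1 library was left out, with the call kept in each of those 4 fits.

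Sox8, the relative of Sox9 with a largely supporting role in glia, had the fewest counts of the members, 199 and 156 counts in control and 139 and 156 counts in Lhx2 cKO. In CPM these were 8.21 and 6.24 against 6.11 and 6.79. The groups overlapped, and the log2 fold change of -0.16 (95% interval -0.58 to 0.26, adjusted p = 0.641, edgeR) was the least precise of the 10. It was 0.035 without control 1. The log2 ratio of Sox8 to Sox9 was -1.90 and -2.35 in control, against -1.63 and -1.46 in Lhx2 cKO, higher in both Lhx2 cKO libraries by a mean of 0.58 (exact permutation p = 0.333), and by 0.36 without control 2.

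**Figure D4:**
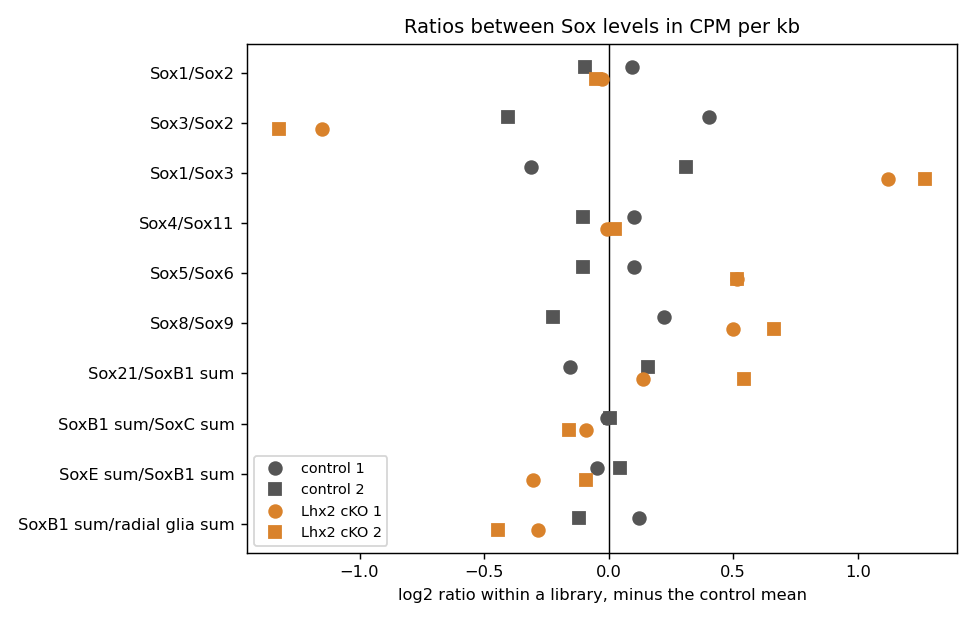
Log2 ratios between Sox levels in CPM per kb within each library, each shown as its distance from the control mean (grey: control, orange: Lhx2 cKO, circle and square: replicates 1 and 2). Sox3 to Sox2 lies about 1.24 lower in Lhx2 cKO, Sox5 to Sox6 and Sox8 to Sox9 lie higher by 0.52 and 0.58, and Sox4 to Sox11 and Sox1 to Sox2 overlap.

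By subgroup, the summed SoxE level in Lhx2 cKO was 64.5% of control, SoxB1 78.2%, SoxC 82.0%, SoxD 86.6% and SoxB2 95.3%. The SoxE sum was 48.9 and 48.5 CPM in control and 31.2 and 31.6 CPM in Lhx2 cKO, and the SoxB1 sum was 107 and 98.9 CPM in control and 85.4 and 75.3 CPM in Lhx2 cKO. For SoxC the sums were 6111 and 5671 CPM against 5036 and 4627 CPM, and for SoxD they were 277 and 264 CPM against 244 and 224 CPM. These 4 sums were lower in both Lhx2 cKO libraries (exact permutation p = 0.333, the smallest this design gives), and the SoxB2 groups overlapped (p = 0.667). The members within a sum were unequal, with 1 called gene each in SoxB1 (Sox3), SoxD (Sox6) and SoxE (Sox9). The log2 ratio of the SoxE sum to the SoxB1 sum per kilobase was -1.75 and -1.66 in control, against -2.01 and -1.79 in Lhx2 cKO, a difference of -0.20 that shrank to -0.09 without Lhx2 cKO 1. That of SoxB1 to SoxC was -4.59 and -4.58 against -4.68 and -4.75, a difference of -0.13. Each of the 10 ratios computed was a description of these libraries, as 2 against 2 cannot pass a threshold of 0.05.

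Of the other Sox genes outside the rule, 6 of 10 listed were in the table. Sox12, the third SoxC gene, was at 407 and 257 CPM in control and at 220 and 239 CPM in Lhx2 cKO, a log2 fold change of -0.53 (adjusted p = 0.00122, edgeR). Control 1 stood apart here: without it the value was -0.17 (adjusted p = 0.395), and DESeq2 gave an adjusted p of 0.298. Sox7 and Sox17, SoxF genes of endothelium, were higher at 1.35 (adjusted p = 0.00871) and 0.82 (0.045), from means of 1.16 to 2.95 CPM and of 2.32 to 4.09 CPM. The call of Sox7 was lost without control 1 (0.0795) or Lhx2 cKO 1 (0.0911), that of Sox17 without any 1 library (0.126 to 0.178) and in DESeq2 (0.0931). Sox18, the remaining SoxF gene, was at 3.75 and 2.80 CPM in control and at 3.87 and 3.57 CPM in Lhx2 cKO. The 10 vascular and meningeal markers in the table had a summed level of 270 to 298 CPM in control and 311 to 344 CPM in Lhx2 cKO. Of these, 5 were called higher (Cldn5, Cdh5, Kdr, Flt1 and Pecam1) and 2 lower (Col1a1 and Rgs5), all named after their values were seen. The part of vascular and meningeal cells in the SoxF values was not tested. Sox10, the third SoxE gene and a mark of neural crest and oligodendrocyte lineage, had 17 and 46 counts in control and 46 and 41 in Lhx2 cKO and was not called (adjusted p = 0.374). Of the neural crest markers 3 of 6 were in the table, with 0 called higher, 1 lower and sums of 26.4 to 28.0 CPM in control and 24.7 to 25.5 CPM in Lhx2 cKO. Red blood cell markers were at 2344 to 3178 CPM in control and 1903 to 2134 CPM in Lhx2 cKO (5 of 7 called lower, 1 higher), and the 3 choroid plexus and hem markers present at 51.9 to 55.6 and 42.1 to 43.4 CPM (2 called higher, 1 lower).

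Of 9 genes listed as Sox2 partner factors, 6 were called lower and 0 higher, with a median log2 fold change of -0.46. The shares of all genes tested, 9.17% called lower and 11.6% higher, belong beside this and each list or marker count below. Pax6, the paired-box factor of cortical radial glia, was at 129 ± 7.55 CPM in control and 54.6 ± 4.11 CPM in Lhx2 cKO (SD, n = 2) and fell by 1.24 on the log2 scale (adjusted p = 6.41e-13, edgeR). The POU factors Pou3f1, Pou3f2 and Pou2f1 fell by 0.69, 0.55 and 0.46 on the log2 scale. Pou3f3, a further POU factor, was at 864 ± 2.94 CPM in control and at 708 ± 21.4 CPM in Lhx2 cKO and narrowly missed the threshold (adjusted p = 0.0504). Sox2 itself was thus not called while 6 of the 9 listed genes were called lower, against 9.17% of all genes. Pou3f2 is also among the excitatory neuron markers named above, and the part of cell types in these falls was not tested.

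Among 14 radial glia genes that SoxB1 factors regulate or accompany, 8 were called lower and 1 higher, with a median of -0.37. Gli2, a Hedgehog effector, was at -1.12, Mki67, a proliferation marker, at -0.87, Notch1, the receptor that maintains progenitors, at -0.72, and Ptprz1, a receptor phosphatase, at -0.53 (adjusted p between 2.29e-09 and 2.30e-04, edgeR). Slc1a3, a glutamate transporter named after its values were seen as the 1 gene of the list called higher, was at 0.27 (adjusted p = 0.0425), a call lost in DESeq2 (0.0876) and without control 1 (0.532), Lhx2 cKO 1 (0.0696) or Lhx2 cKO 2 (0.194). Vim and Fabp7, structural and lipid-binding markers of radial glia, were at 0.20 and 0.16 and were not called. The summed list was at 1501 to 1667 CPM in control and at 1299 to 1301 CPM in Lhx2 cKO. In these CPM, the log2 ratio of the Lhx2 cKO mean to the control mean was -0.28 for the list and -0.36 for the SoxB1 sum. With both sums taken per kilobase, the log2 ratio of SoxB1 to the list averaged -2.88 ± 0.17 in control and -3.24 ± 0.11 in Lhx2 cKO (SD, n = 2). That difference of -0.37 was without overlap (exact permutation p = 0.333) and holds for the scale per kilobase. Intermediate progenitor markers, Eomes among them, were also lower, with 6 of 8 called lower, 0 higher and a summed level of 913 to 923 CPM in control and 555 to 575 CPM in Lhx2 cKO. The part of either cell type in the falls of Sox3, Sox6 and Sox9 was not tested.

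The neuronal genes linked to SoxC did not follow a common direction: of 12, 2 were called lower and 2 higher, with a median of -0.04. Tead2, a Hippo pathway factor, fell by 0.64 and Elavl4, a neuronal RNA-binding protein, by 0.55 on the log2 scale. Stmn2, a regulator of microtubules in growing axons, rose by 0.60 (adjusted p = 5.47e-05) and Mapt, which encodes tau, by 0.45 (0.00301), the latter with an adjusted p of 0.0938 without control 2. Tubb3 and Dcx, microtubule genes of young neurons, were not called, at 0.07 and 0.06. The summed list was at 8596 to 9022 CPM in control and at 9446 to 9667 CPM in Lhx2 cKO, where Sox4 and Sox11 were at 82.1% and 81.9% of control.

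Beside Sox5, 9 of 10 listed deep-layer and subplate genes were in the table, with 1 called lower, 1 higher and a median of 0.23. Those counts are close to the shares of all genes, 9.17% called lower and 11.6% higher. Foxp2, a factor of layer 6 neurons, was at -0.34 (adjusted p = 0.0147) and Nr4a2, a subplate factor, at 0.40 (adjusted p = 0.0242). Foxp2 lost its call without control 1 (0.109), Lhx2 cKO 1 (0.0697) or Lhx2 cKO 2 (0.0652). Nr4a2 lost it without control 1 (0.129), control 2 (0.0713) or Lhx2 cKO 1 (0.203), and in DESeq2 (0.0674). Fezf2 and Tbr1, selectors of corticofugal identity, were at -0.19 and 0.08 and were not called.

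Beside Sox6, 12 of 13 listed interneuron genes were in the table, with 4 called higher, 2 lower and a median of 0.13. Sst, the somatostatin gene, rose from 42.3 ± 0.963 to 89.2 ± 8.73 CPM (SD, n = 2; log2 fold change 1.07, adjusted p = 6.54e-11, edgeR), and Gad2, a GABA-synthesizing enzyme, rose by 0.48. Satb1, a chromatin factor of maturing interneurons, fell by 0.55 and Npas1 by 0.50 on the log2 scale. Npas1 lost its call without control 1 (adjusted p = 0.143) or Lhx2 cKO 2 (0.0687). Lhx6, the factor that marks interneurons of the medial ganglionic eminence and acts upstream of Sox6 there, was at 70.9 and 48.8 CPM in control and at 60.2 and 54.7 CPM in Lhx2 cKO. The Lhx6 values of Lhx2 cKO lay between those of the control libraries, which differed from each other. The log2 fold change of Lhx6 was 0.22 without control 1 and -0.30 without control 2. Sox6 was lower in both Lhx2 cKO libraries, and the part of interneurons in its fall was not tested. Of 9 ventral telencephalon markers 5 were in the table, with 1 called higher, Gad2. Their summed level was 129 to 156 CPM in control and 147 to 165 CPM in Lhx2 cKO, which overlap. Gad2, Dlx1, Dlx2 and Lhx6 are in the interneuron list too, so these markers are largely the same genes.

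Glial genes linked to SoxE were split: of 18, 12 were called higher and 5 lower, with a median of 0.79. DESeq2 called 11 higher and 5 lower, and fewer were called higher in some fits that left out 1 library. Gfap, named after its values were seen, had only 12 and 19 counts in control and lost its call in DESeq2 (adjusted p = 0.0957). Beside the glial genes, 9 of 10 microglia markers were called higher. Their summed level was 123 to 127 CPM in control and 259 to 286 CPM in Lhx2 cKO. The part of microglia in the glial values was not tested. Aldh1l1, an astrocyte enzyme, rose from 4.81 ± 0.0168 to 28.9 ± 2.70 CPM and Egfr, a growth factor receptor of late progenitors, from 1.95 ± 0.0992 to 13.6 ± 0.526 CPM (SD, n = 2), log2 fold changes of 2.58 and 2.80. Apcdd1, a gene that Sox9 activates with Nfia in glial precursors of the spinal cord, rose by 0.78 (adjusted p = 1.56e-07). Fgfr3, a receptor of radial glia and astrocytes, was at 91.2 ± 0.806 CPM in control and 52.2 ± 2.77 CPM in Lhx2 cKO and fell by 0.80 on the log2 scale (adjusted p = 3.32e-08). Nfia, the partner of Sox9 in glial initiation, was at 305 ± 1.75 CPM in control and 207 ± 7.62 CPM in Lhx2 cKO and fell by 0.56 on the log2 scale (adjusted p = 2.14e-05, edgeR), and was named after its values were seen. Sox9 and Nfia were therefore lower in the same libraries in which most listed glial genes were higher. The summed list was lower in Lhx2 cKO, at 3750 to 3793 CPM against 4907 to 5217 CPM, and the 5 that fell, named here to account for the count after their values were seen, were Nfix, Nfib, Nfia, Ptprz1 and Fgfr3. Nfib lost its call without control 1 (adjusted p = 0.0698), control 2 (0.188) or Lhx2 cKO 2 (0.158).

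**Figure D5:**
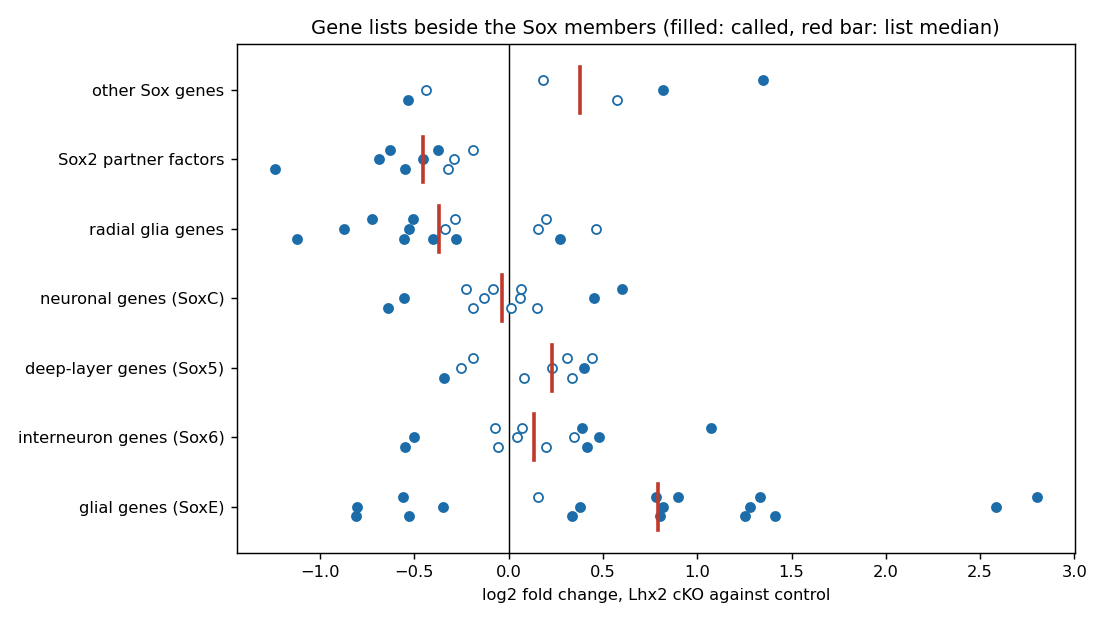
Log2 fold changes, Lhx2 cKO against control, of each gene in the 7 lists that had genes in the table (filled: called in edgeR, red bar: list median). Most partner factors and radial glia genes lie left of 0, and 12 of the 18 glial genes are called to the right.

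In the mouse GENCODE M21 annotation, exons of Sox4, Sox5, Sox8 and Sox21 overlap a noncoding gene on the other strand, and those of Sox1 a miRNA gene on the same strand. Sox2 lies inside Sox2ot on the same strand, with no shared exon. Exons of Tead2, Nfia, Nfix, Eomes, Cux1, Fgfr3, Aldh1l1, Notch1, Pou2f1, Pou3f1, Satb1, Lhx6 and Sox17 also overlap other genes. Xist lies opposite its antisense gene Tsix. The use of strand in the counting is not given in the sources used here, so reads of overlapping genes cannot be told apart and these counts are uncertain. Exons of Sox3, Sox6, Sox9 and Sox11 overlap no other gene in that annotation.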

How the data were processed

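RNA-seq of polyadenylated RNA was done by the authors on mouse cortex at embryonic day 15, in 2 control and 2 Lhx2 cKO libraries. Per the submitters' processing notes the tools included Trim Galore, Subread, featureCounts and edgeR with the build mm39, and their versions and settings are not given in the sources used here. The deposited table holds raw counts per gene, a gene length in bases, and the authors' log2 fold changes, mean log2 CPM, p-values, adjusted p-values, −log10 adjusted p-values and a label of change for Lhx2 cKO against control. These authors' values are printed only where named.

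Each column was assigned by its title. Counts were tested with edgeR 4.0.16 in R 4.3.3 (TMM, filterByExpr with a minimum count of 10, glmQLFit and glmQLFTest, no covariates, two-sided), and p-values were adjusted by Benjamini-Hochberg over 13288 genes. Genes are termed called where the adjusted p was under 0.05. Standard errors were taken from each estimate and its F statistic. CPM are TMM-scaled, and CPM per kb divide them by the deposited length. The script was tested on simulated data. Detection limits of 3 counts correspond to 0.120 to 0.132 CPM and cover counting error only. Alternatives used DESeq2 1.42.0 and limma 3.58.1, other scalings and filters, a replicate block and leaving out each library.

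Members and gene lists were chosen with earlier results of these data known. The text names all members, Lhx2, and, in each list, at most 4 genes past the threshold, lowest p first, plus uncalled genes of known role and exceptions marked in the text. Sox1ot and Sox2ot were not analysed here. RefSeq promoters and the M21 annotation are on GRCm38, not the authors' build, and were used for sequence and overlaps only. Not every listed excitatory neuron marker is reported here. No batch is given in the labels.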

Additional observations from a re-analysis of the deposited data

How the results depend on the processing

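Sox3, Sox6 and Sox9 were called lower, and 0 members higher, under each scaling, filter, tool, the replicate block, an adjusted p under 0.01 and each fit that left out 1 library (which assumes that the lone library of a group varies like the others). DESeq2 called 5 members, adding Sox4 and Sox11, and library totals and limma-voom called 4, adding Sox11. Across fits that left out 1 library, Lhx2 ranged from -0.38 to -0.25, the SoxB2 sum from -0.183 to 0.0363, the Sox1 to Sox2 ratio from -0.134 to 0.056 and the Sox4 to Sox11 ratio from -0.0934 to 0.111 on the log2 scale. Among single members the sign turned for Sox21 without control 2 (0.0273) or Lhx2 cKO 1 (0.036), in a range from -0.187, and for Sox8 without control 1 (0.0351), in a range from -0.347. No sign turned with all 4 libraries. In DESeq2 the other Sox genes had 1 called higher and 0 lower, the radial glia list 0 higher and the deep-layer list 0 higher. Leaving out 1 library, an alternative added after seeing the data for the lists, gave 0 to 1 called higher and 0 to 1 lower for other Sox genes, 0 to 1 higher for radial glia, 1 to 2 higher for neuronal genes, 0 to 1 higher and 0 to 2 lower for deep-layer genes and 1 to 2 lower for interneuron genes. Fewer glial genes were called higher in some fits that left out 1 library, and fewer Sox2 partner factors were called lower in each. The cause was not tested, though such fits have fewer samples. Adding 1 CPM before a ratio turned no direction. Deviations of the same replicate number correlated at 0.00097 across genes, so no shared deviation was seen. That correlation cannot show whether libraries of the same number shared a litter or a preparation, which the labels do not give. A fit with the replicate block called 2874 genes in place of 2758, the 3 members stayed called and the deep-layer list had 2 called lower. Depth limits Sox8 most, with 139 to 199 counts.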
